A study of Mus musculus with 9 samples.

Results

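Narrow PPARγ ChIP peaks with many reads were taken from ChIP-sequencing of interscapular brown adipose tissue (iBAT). They are the peaks with a width of at most 1500 bases and a mean raw count of at least 800 reads over the 8 libraries. Of the 66066 peaks, 1613 (2.44%) met both limits. The rule used the counts and the widths themselves, so the level and the width of these peaks are descriptions and not results. The iBAT came from male mice of the inbred strain C57BL/6J at 10 weeks of age, housed with lights on and off in turn and killed every 3 h from ZT0, the start of the light phase, to ZT21. The groups thus share strain, sex, age and housing and differ by their labels in the time of collection. Tissue of 8 mice was pooled per time point according to the ChIP method, with 250 to 350 mg per pool in the sample labels, although 4 animals per time point are stated where the housing is described. PPARγ was pulled down from each pool with 8 μg of antibody, and 1 library was sequenced per time point, so the spread between mice or preparations could not be estimated. An input library of ZT12 was not analysed here, so no peak could be compared with chromatin taken without the antibody.

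The nuclear receptor PPARγ directs the development of adipocytes and the expression of genes for lipid uptake and storage. It binds DNA as a dimer with a retinoid X receptor, and its typical element, direct repeat 1 (DR1), holds the hexamer AGGTCA in tandem with a base between the copies. Read counts over a peak rise with the share of chromatin that carries the receptor at that place, and the width of a peak follows how far along the chromosome reads pile up around it.

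Perfect DR1 elements are shown first, because they are the plainest form of the sequence that the receptor dimer reads. In the central 300 bases, 5 of the 1613 peaks held a DR1 element without a mismatch at its 12 fixed bases. Each line gives the gene with the nearest start site and the element in capitals with 20 bases on either side, read on the strand of the element from the RefSeq assembly GRCm38.p6, the base assembly of mm10.
Rnf7: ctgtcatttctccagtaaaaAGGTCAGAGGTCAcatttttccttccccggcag
Srp54a: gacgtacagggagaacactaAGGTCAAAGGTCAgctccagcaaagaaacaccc
H2-Ke6: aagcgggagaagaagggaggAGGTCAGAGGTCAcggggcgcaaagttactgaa
Mrap: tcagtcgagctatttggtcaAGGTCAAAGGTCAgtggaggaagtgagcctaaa
1700026J12Rik: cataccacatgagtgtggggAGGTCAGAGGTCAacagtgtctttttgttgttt
These stretches lie at chr9:96493363-96493415, minus strand (Rnf7), chr12:55080358-55080410, plus strand (Srp54a), chr17:34027860-34027912, plus strand (H2-Ke6), chr16:90740265-90740317, plus strand (Mrap), and chr16:49316691-49316743, plus strand (1700026J12Rik). The Mrap element is in an intron of Mrap, which encodes an accessory protein of the melanocortin 2 receptor. The base between the hexamers was A in the Srp54a and Mrap elements and G in the other elements of this group.

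The oscillating peaks with the largest ratio of highest to lowest library are shown next, by their best match to DR1, to set the sequence beside the time courses described further on. Capitals again mark the best DR1 match, with 20 bases on either side, or 8 for Gm16279.
Gm16279: tagatccaGGGTCAAAGGTCAccaaaaca
BB123696: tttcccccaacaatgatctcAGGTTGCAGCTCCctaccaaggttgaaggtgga
Gm46545: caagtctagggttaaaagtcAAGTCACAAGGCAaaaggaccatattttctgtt
Slc30a2: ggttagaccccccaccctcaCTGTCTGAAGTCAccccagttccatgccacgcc
Klhl8: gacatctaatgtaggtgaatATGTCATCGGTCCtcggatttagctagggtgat
Setd1a: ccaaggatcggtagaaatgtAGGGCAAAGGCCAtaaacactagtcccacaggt
The Gm16279 match, at chr17:35909785-35909813, plus strand, has 1 mismatch, and the Setd1a match, at chr7:127774072-127774124, minus strand, has 2. The matches at Gm46545 (chr16:24061623-24061675, plus strand) and Klhl8 (chr5:103848524-103848576, plus strand) have 3 mismatches, and those at BB123696 (chr13:52736234-52736286, plus strand) and Slc30a2 (chr4:134356255-134356307, plus strand) have 4, which is beyond the limit of 2 mismatches used here. Thus 2 of these 6 peaks held a DR1 element by that limit in the central 300 bases.

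The 6 densest peaks, by reads per kb of width, have no DR1 element by this limit in their central 300 bases, where their best matches hold 4 or 5 mismatches. Over its whole width, the Mlst8 peak holds a match with 2 mismatches.
Lrrc4c: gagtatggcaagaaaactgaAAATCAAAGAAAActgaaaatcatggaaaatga
Cr2: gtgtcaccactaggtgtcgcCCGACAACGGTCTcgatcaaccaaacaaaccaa
mitochondrial peak: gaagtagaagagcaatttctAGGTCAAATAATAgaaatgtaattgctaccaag
Csf2ra: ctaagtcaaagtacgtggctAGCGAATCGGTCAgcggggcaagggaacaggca
Pisd-ps3: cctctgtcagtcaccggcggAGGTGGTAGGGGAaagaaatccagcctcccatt
Mlst8: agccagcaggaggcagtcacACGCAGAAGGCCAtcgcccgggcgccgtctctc
They come from chr2:98667008-98667060, plus strand (Lrrc4c), chr1:195241573-195241625, plus strand (Cr2), chr19:61266936-61266988, plus strand (Csf2ra), chr17:24478720-24478772, plus strand (Mlst8), positions 9626 to 9678 of the mitochondrial chromosome, minus strand, and positions 59841 to 59893 of the unplaced scaffold MSCHRUN_CTG23, minus strand (Pisd-ps3). The Cr2 match starts 8 bases before the peak, which is narrower than the window of 300 bases searched. The densest peak of all is also shown over its central 240 bases (chr2:98666902-98667141, plus strand), because it stands apart from every other peak and 98.9% of it is marked as repeat sequence in the assembly.
densest peak: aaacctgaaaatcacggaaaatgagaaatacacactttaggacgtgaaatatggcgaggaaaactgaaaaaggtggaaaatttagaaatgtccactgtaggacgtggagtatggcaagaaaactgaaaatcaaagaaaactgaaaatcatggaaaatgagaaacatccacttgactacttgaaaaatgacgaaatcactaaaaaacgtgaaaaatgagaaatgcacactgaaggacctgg

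The widths of the 1613 peaks had quartiles of 1096, 1263 and 1383 bases, and their mean raw counts had quartiles of 871, 968 and 1150.4 reads. A mean under 1000 reads was found in 900 peaks (55.8%), and 342 peaks were wider than 1400 bases. Just inside the limit of width was a peak of 1500 bases in an intron of Rara (chr11:98950684-98952183; mean 1220 reads). Just inside the limit of counts was a peak in an intron of Vamp8 (chr6:72389532-72390916), with a mean of exactly 800 reads, and just outside was one in an intron of Irak2 (chr6:113650827-113652134), with a mean of 799.9. The median read density was 819 reads per kb, compared with 564 in the 8770 wider peaks of the same count minimum and 231 in the 50678 narrow peaks under it. A high density is nevertheless not what the rule selects: of the 1613 densest peaks in the data, 534 (33.1%) met the rule, 984 were wider peaks and 95 had too few reads.

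**Figure D1:**
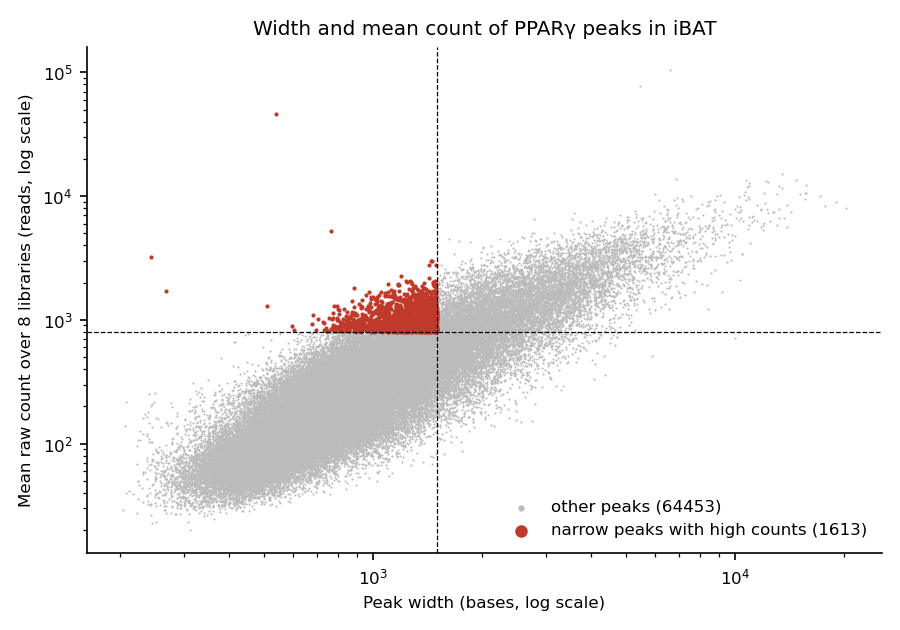
Width (bases) and mean raw count (reads) of all 66066 PPARγ peaks on log axes, with the 1613 narrow, high-count peaks in red and the limits of 1500 bases and 800 reads as dashed lines. Of the red points, 900 lie under 1000 reads and 342 above 1400 bases, and the 5 densest have at most 767 bases.

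The libraries held 29572225 to 34264812 reads in peaks, and the narrow, high-count peaks took 5.05% (ZT15) to 5.74% (ZT6) of them. Peaks were also assigned to marker genes of cell types by the nearest start site. These counts describe PPARγ binding at the genes, and so cannot test the tissue label or the share of other cells. All 10 brown adipocyte markers had peaks, 79 in total with 23 of at least 800 reads, and a summed normalized count of 82788 to 108094 per library. Skeletal muscle markers had 6 peaks at 3 of 9 genes with a sum of 1149.9 to 1370.0, macrophage markers had 2 peaks at 2 of 7 genes with a sum of 168 to 229.8, and endothelial markers had 49 peaks at 7 of 7 genes with a sum of 7746 to 12014. Among the marker genes, Pecam1 alone had a narrow, high-count peak. The part of endothelial cells in the peaks described here was not tested.

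The 5 densest peaks stood apart from the others, with 2553 reads per kb or more, whereas the next peak had 2070.4. They were 244 to 767 bases wide, held 3.30% of all reads in the narrow, high-count peaks, and 0 of the 5 oscillated in JTK-cycle, from which nothing can be read at a background of 11.6% of all peaks. The densest was chr2:98666753-98667291, an intergenic peak 1199360 bases from the start site of Lrrc4c. Its normalized counts were 48173, 48263, 50758 and 40494 from ZT0 to ZT9 and 46638, 39889.9, 53589 and 42476 from ZT12 to ZT21. The highest library was ZT18 and the lowest ZT15, JTK-cycle made no call (adjusted P = 1, but 0.0260 with cyclic loess normalization), and of its 31-base pieces 58.8% occurred more than once in the genome.

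The other peaks of this group had ratios of highest to lowest library of 1.25 to 1.61. A peak of 244 bases between genes near Cr2 (chr1:195241601-195241844) had normalized counts from 2865 at ZT0 to 3592 at ZT21, with a median of 3219, and was called by JTK-cycle without ZT0 alone among the settings tried (adjusted P = 0.0417). The peak on the mitochondrial chromosome (positions 9226 to 9992) ranged from 4194 at ZT3 to 6764 at ZT12, with a median of 4967, and 91.7% of its pieces had a further copy in the genome. Near Csf2ra (chr19:61266883-61267150) a peak of 268 bases ranged from 1488 at ZT0 to 1911 at ZT3, and on the unplaced scaffold MSCHRUN_CTG23, 90 bases from the start site of Pisd-ps3, a peak of 508 bases ranged from 1192 at ZT9 to 1495 at ZT21. The last 2 had 0% repeated pieces. In all, 21 of the 1613 peaks had more than 50% of their pieces in several copies (1.30%, as in all peaks, of which 1.30% did), and of these 21 JTK-cycle called 0 and the cosine 4 (19.0%), with backgrounds of 11.6% and 13.4% of all peaks. Without an input library to compare with, whether the reads at repeated, mitochondrial or other very dense peaks depend on PPARγ was not tested.

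The sixth densest peak, and the densest on a placed nuclear chromosome outside these 5, was chr17:24477979-24479426 in an intron of Mlst8, which encodes a subunit shared by the mTOR complexes. Its normalized counts were 2906, 3179, 3376 and 3039 from ZT0 to ZT9 and 3163, 2639, 2596 and 3066 from ZT12 to ZT21. ZT15 and ZT18 were the lowest libraries and ZT6 the highest, and the adjusted P from the exact JTK-cycle test was 0.0826, or 0.00595 without ZT9. The next peaks by density outside repeated sequence, chosen after their values were seen, were at the start site of Dnah6 (2046 reads per kb), in introns of Chrna2 (2023), a nicotinic acetylcholine receptor gene, and Sctr (1955), which encodes the secretin receptor and at the start site of Tmem143 (1886). Of these, the Sctr peak oscillated (LAG 7.5 h, adjusted P = 0.00595), although its call was lost with cyclic loess normalization (adjusted P = 0.0826) and without ZT18 (adjusted P = 0.161).

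The mean of a peak over the other 7 libraries fell under 800 reads for 9 (ZT21) to 79 (ZT6) of the 1613 peaks when a library was left out.

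The position of the peaks was not used by the rule. With the centre of the peak as its position, 803 of the 1613 peaks (49.8%) were intergenic, 662 (41.0%) were in introns, 88 (5.46%) in exonic UTR, 44 (2.73%) in coding exons and 16 (0.992%) in exons of non-coding RNA. The wider peaks of the same count minimum were intergenic in 35.4% and intronic in 53.0%, and the narrow peaks with fewer reads in 42.5% and 49.2%. Within 1 kb of a start site of a curated transcript lay 314 narrow, high-count peaks (19.5%), compared with 29.1% of the wider peaks, 12.7% of the weaker narrow peaks and 15.7% of all peaks. The median distance to a start site was 18170 bases, against 8822 in the wider peaks. The median GC content was 49.0%, compared with 49.4% in the wider peaks and 46.8% in the weaker narrow ones. These shares are set side by side without a test.

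Peaks of this kind were spread over many genes. They were assigned to 1416 genes, of which 1257 had 1 such peak, 131 had 2, 23 had 3 and 5 had 4 or more. The largest group, 8 peaks over 669184 bases of chromosome 15, was assigned to Macroh2a3, a gene inside Pvt1, a non-coding RNA gene next to Myc. Of these 8, 3 lie in introns of Pvt1. At a background of 11.6% of all peaks nothing can be read from 8 peaks, of which 2 oscillated. In the first of those (chr15:62180756-62181948) the normalized counts were 628, 1092, 1053 and 1106 from ZT0 to ZT9 and 903, 560.4, 479 and 669 from ZT12 to ZT21, and in the second (chr15:62294853-62295901) they were 1313, 1430.0, 1849 and 1646 from ZT0 to ZT9 and 1537, 1002, 1199.8 and 1328 from ZT12 to ZT21. Both had their lowest values at ZT15 and ZT18, the first was high from ZT3 to ZT9 and the second at ZT6, with an adjusted P of 0.0260 and a LAG of 7.5 h for each. The first call was lost without ZT0, ZT12, ZT15, ZT18 or ZT21 (adjusted P = 0.161) and with a period of 24 h alone (adjusted P = 0.113) and the second without ZT0, ZT6, ZT9 or ZT21 (adjusted P = 0.161) and with a period of 24 h alone (adjusted P = 0.113). Galnt18, Gm10445, Gm13986 and Nmnat2, an enzyme of NAD synthesis, had 4 peaks each, and among the genes with 3 were Irf4, a transcription factor that takes part in the thermogenic programme of brown fat, Lmo4 and Creb5. Of the peaks, 97.8% had another PPARγ peak within 50 kb, while 363 had another peak of their own kind within that distance.

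In the central 300 bases, a DR1 element with at most 2 mismatches was found on either strand in 169 of the 1613 peaks (10.5%), in 10.5% of the weaker narrow peaks, in 6.75% of the wider peaks and in 9.69% of all peaks. An exact AGGTCA, alone or within a DR1 element, was in 28.5%, 27.9%, 21.9% and 26.6% of the same sets. The element of the early B cell factors (EBF), among which EBF2 marks brown adipocytes, was in 57 peaks (3.53%), compared with 2.36% of the weaker narrow peaks, 1.39% of the wider ones and 2.17% of all. TTGCNNAA, bound by C/EBP factors, was in 20.6%, compared with 21.1% of the weaker narrow peaks, 14.4% of the wider ones and 19.7% of all. TTGGCA, one side of the nuclear factor I palindrome, was in 28.3%, compared with 28.9%, 17.3% and 26.5% of these sets. GGGCGGG, bound by SP1, was in 11.0%, compared with 7.76% of the weaker narrow peaks, 11.5% of the wider ones and 8.35% of all. The motifs were searched on both strands, and the centre of a peak is not its summit, which the files used here do not give. Over the whole peak, whose length differs between the sets, DR1 was in 25.9% of the narrow, high-count peaks, 18.4% of the weaker narrow peaks and 46.6% of the wider peaks.

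Among the 169 elements, the conserved bases were not equally kept. Counted from 1 at the first base of the element, A at position 8 was present in 93.5%, A at position 6 in 92.3% and G at positions 3 and 9 in 91.7%, while T at position 4 was present in 73.4% and T at position 11 in 74.0%. The free base at position 7 was G in 37.9%, A in 37.3% and T in 8.88%, with C in the others. The limit on mismatches chose these elements, so the order of the positions is a description of them.

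**Figure D2:**
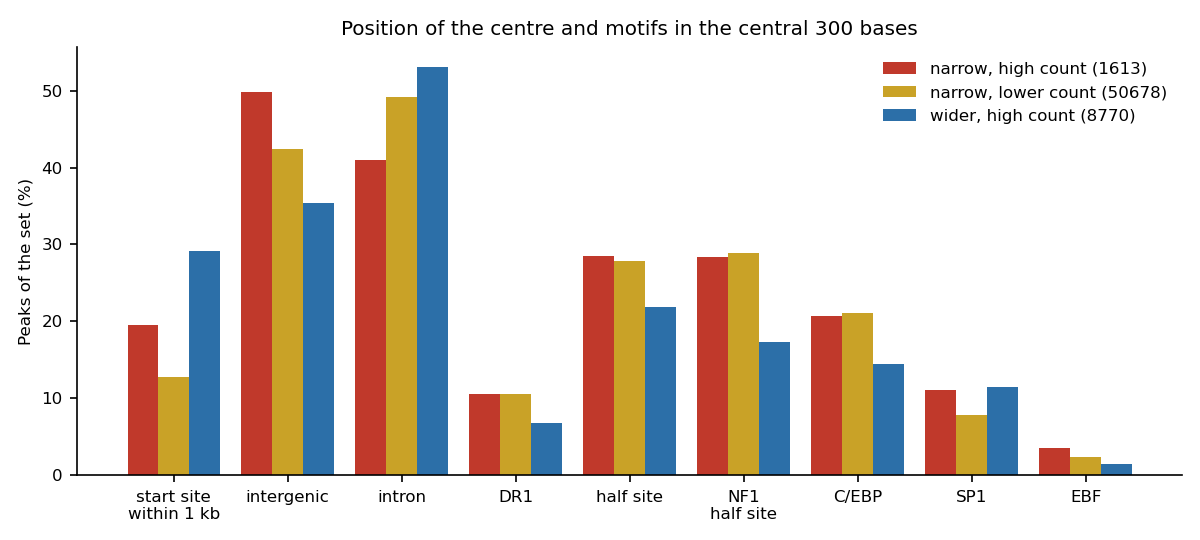
Percent of 1613 narrow peaks with at least 800 reads (red), 50678 narrow peaks with fewer reads (yellow) and 8770 wider peaks with at least 800 reads (blue) that lie within 1 kb of a start site, between genes or in introns, or hold each motif in the central 300 bases. Red stands between or level with the other sets at start sites and for DR1, and is the highest for intergenic position and EBF.

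The rule used the mean over the libraries and not their order in time, which can be tested. A library with a high value still raises that mean: without ZT6, 79 of these peaks fell under 800 reads, and without ZT21, 9. Normalized counts are counts scaled to a common library size with the TMM factors of edgeR, a trimmed mean of log ratios between libraries. JTK-cycle compares the order of the 8 values with waves of 21 and 24 h, in 15 combinations of period and phase, and gives an adjusted P from the exact null distribution. With 8 values, the lowest adjusted P values possible are 0.000744, 0.00595, 0.0260 and 0.0826. An adjusted P under 0.05 is called oscillating, and the LAG is the estimated time of the highest value in h after ZT0.

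Of the 1613 peaks, 257 (15.9%) oscillated, compared with a background of 11.6% of all peaks. Because counting error falls with the number of reads, the wider peaks of the same count minimum are a closer comparison, and 19.6% of these oscillated. In the middle range of the counts, from 871 to 1150.4 reads, 14.4% of 807 narrow peaks and 14.6% of 2084 wider peaks oscillated. The smallest P value of the design was reached by 22 of the 1613 peaks and 101 of the 8770 wider peaks, with a background of 0.769% of all peaks. Over all 66066 peaks, 0 narrow, high-count peaks had a Benjamini-Hochberg q value under 0.05, as the smallest q value of any peak was 0.0968. A 24-h cosine fitted to the counts with edgeR's quasi-likelihood method called 359 peaks (22.3%) at a Benjamini-Hochberg adjusted P under 0.05, compared with a background of 13.4% of all peaks and 25.2% of the wider peaks. Both methods called 181 of the 1613 peaks and 1228 of the 8770 wider peaks, with a background of 6.71% of all peaks. With cyclic loess normalization the cosine called 234 peaks, and without the ZT18 library 107. Shares of all peaks under these settings are not given here.

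At start sites a smaller share of the peaks oscillated than elsewhere, as was so among all peaks and among the wider peaks. Of the 314 peaks within 1 kb of a start site, 27 (8.60%) were called by JTK-cycle and 18 (5.73%) by the cosine, whereas of the 1299 others 230 (17.7%) and 341 (26.3%) were called. Among all peaks the shares were 8.36% and 6.11% at start sites and 12.2% and 14.7% elsewhere. In the wider peaks of the same count minimum they were 13.3% and 12.1% at start sites and 22.1% and 30.5% elsewhere. The values of the 314 narrow, high-count peaks at start sites also spread less. Their median ratio of highest to lowest normalized count was 1.26, against 1.42 elsewhere, and among all peaks it was 1.30 and 1.57. Of the 169 peaks with a DR1 element 35 (20.7%) oscillated, and of the 1444 without one 222 (15.4%), whereas among all peaks both shares were 11.6%. The differences between these subsets were not tested.

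Most of the oscillating narrow, high-count peaks had a LAG, which is an estimate, in the middle of the light phase. The best wave had a period of 21 h in 142 of them (55.3%) and of 24 h in 115. The LAG was 6 h in 92 of 257 (35.8%), 7.5 h in 59, and between 3 and 9 h in 218 (84.8%). A call with a LAG in that range was made for 4.99% of all peaks. Of the oscillating peaks, 72.3% of the wider peaks and 42.9% of all peaks had such a LAG. A LAG from 13.5 h to before 21 h was estimated for 21 peaks (8.17%), compared with 15.7% and 41.9%. The share of early LAGs moved with the normalization: it was 66.7% with library totals alone, where 51.9% of the wider peaks and 26.6% of all oscillating peaks were early, and 68.3% with cyclic loess, where 36.7% and 37.5% were. Without the ZT15 library it was 72.1%. Of the 257 calls, 157 were also made under all 5 normalizations, and 130 of these had a LAG between 3 and 9 h. The 157 are 9.73% of the narrow, high-count peaks, and 7.22% of all peaks were called under all 5.

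**Figure D3:**
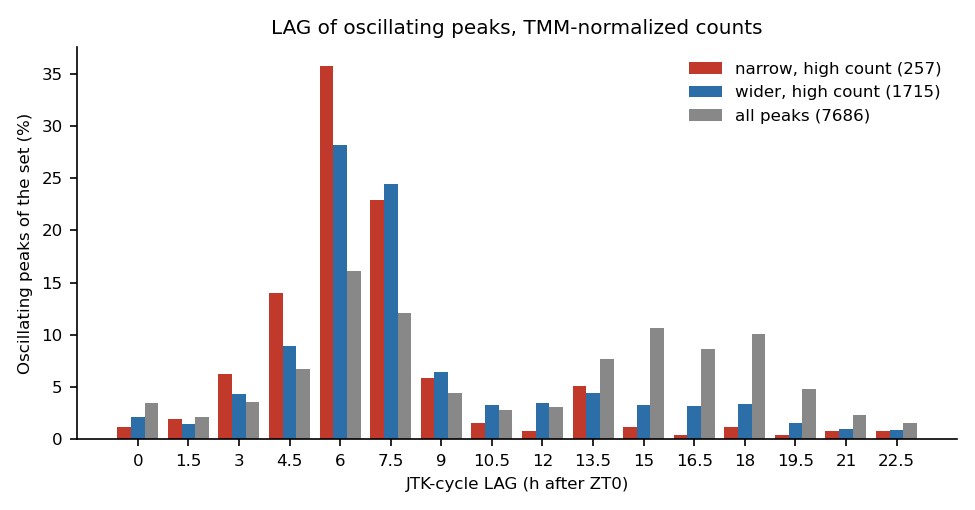
LAG of oscillating peaks (h after ZT0) as a percentage of each set, for 257 narrow, high-count peaks (red), 1715 wider peaks with at least 800 reads (blue) and 7686 of all peaks (grey). The red and blue bars are gathered around 6 and 7.5 h, while the grey bars hold a further group from 13.5 to 18 h.

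The same shape was present in the medians over all 1613 peaks, with the called ones included. Peaks without a call were not examined apart. As a fraction of each peak's own mean, the median normalized count was 1.02, 1.02, 1.08 and 1.03 from ZT0 to ZT9 and 1.00, 0.889, 0.951 and 0.976 from ZT12 to ZT21. ZT6 was the highest library and ZT15 the lowest. ZT15 was the lowest of the 8 in 766 peaks (47.5%), with a background of 19.6% of all peaks, and ZT6 was the highest in 573 (35.5%), with a background of 17.4%. In the wider peaks of the same count minimum these shares were 28.1% and 29.8%. With library totals alone the narrow, high-count peaks had 39.0% and 24.7%, the wider ones 22.3% and 20.5%, and all peaks 15.5% and 12.3%. Cyclic loess gave 37.1% and 28.3%, 17.6% and 16.6%, and 19.3% and 16.7% in the same sets. In the wider peaks the median was 1.05 at ZT6 and 0.954 at ZT15. The ZT15 median of the narrow peaks was 0.919 with library totals and 0.923 with cyclic loess. With 1 library per time point, the time and the library cannot be told apart. A high value at ZT6 also raises the mean that the rule used, and its part in these shares and in the LAGs was not tested.

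**Figure D4:**
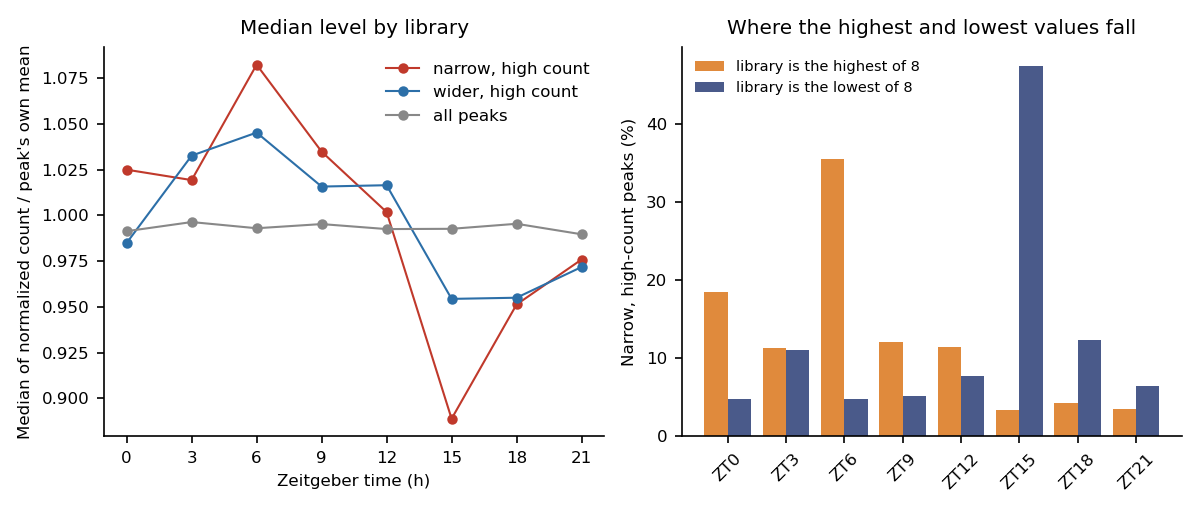
Left, median over peaks of the normalized count divided by the peak's own mean (no unit) at each Zeitgeber time, for narrow, high-count peaks (red), wider high-count peaks (blue) and all peaks (grey). Right, percent of the 1613 narrow, high-count peaks in which each library is the highest (orange) or the lowest (dark blue) of 8. The red line is highest at ZT6 (1.08) and lowest at ZT15 (0.889), and ZT15 is the lowest library in 47.5% of peaks.

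The largest changes over the day among oscillating peaks were 2.34- to 3.00-fold between the highest and the lowest library, which is the value that chose them. At the start site of Gm16279 (chr17:35909109-35910378), a non-coding RNA gene, the normalized counts were 731, 1188, 1304 and 1052 from ZT0 to ZT9 and 747, 435, 538 and 812 from ZT12 to ZT21. They rose to ZT6 and fell to ZT15, with a LAG of 6 h (exact JTK-cycle adjusted P = 0.00595; edgeR cosine adjusted P = 0.00172), and the call was lost with a period of 24 h alone (adjusted P = 0.113). Near Slc30a2 (chr4:134355681-134357051), which encodes a zinc transporter, an intergenic peak had 671, 888, 1343 and 930.4 from ZT0 to ZT9 and 825, 582, 561 and 811 from ZT12 to ZT21. This peak, at ZT6 2.39 times its ZT18 value, reached the smallest P value possible (0.000744) and oscillated under all 13 other settings tried, which were 4 normalizations, each library left out and a period of 24 h alone.

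In an intron of Aff1, which encodes a part of the super elongation complex, with the nearest start site that of Klhl8 (chr5:103848067-103849199), the counts were 789, 1188, 1468 and 925 from ZT0 to ZT9 and 854, 624, 682 and 933 from ZT12 to ZT21. Here too ZT6 was the highest and ZT15 the lowest (adjusted P = 0.0260), and the call was lost without ZT3, ZT6, ZT15 or ZT18 (adjusted P = 0.161) and with a period of 24 h alone (adjusted P = 0.249). A peak centred in a coding exon of Orai3, a calcium channel gene, 3294 bases upstream of Setd1a, which encodes a histone H3K4 methyltransferase (chr7:127773626-127774564), had 1139.5, 1141, 1378 and 1159 from ZT0 to ZT9 and 919, 589, 703 and 956 from ZT12 to ZT21. It was high from ZT0 to ZT9 and lowest at ZT15 (adjusted P = 0.0260), and it lost its call under 3 of the 4 other normalizations and without ZT6, ZT12, ZT15, ZT18 or ZT21 (adjusted P between 0.161 and 0.452).

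The intergenic Gm46545 peak (chr16:24060964-24062419) had 603, 1192, 1023 and 1213 from ZT0 to ZT9 and 808, 766, 489 and 620.3 from ZT12 to ZT21. It was high from ZT3 to ZT9 (LAG 9 h, adjusted P = 0.0260), a call lost without ZT0, ZT9, ZT15, ZT18 or ZT21 (adjusted P = 0.161) and with a period of 24 h alone (adjusted P = 0.113). A late example was the peak in an intron of BB123696 (chr13:52735477-52736771), with 647, 503, 792 and 850.3 from ZT0 to ZT9 and 1292, 899.7, 819 and 767 from ZT12 to ZT21. Its highest value was at ZT12 and its lowest at ZT3 (LAG 13.5 h, adjusted P = 0.00595), and the call held under all 13 other settings.

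**Figure D5:**
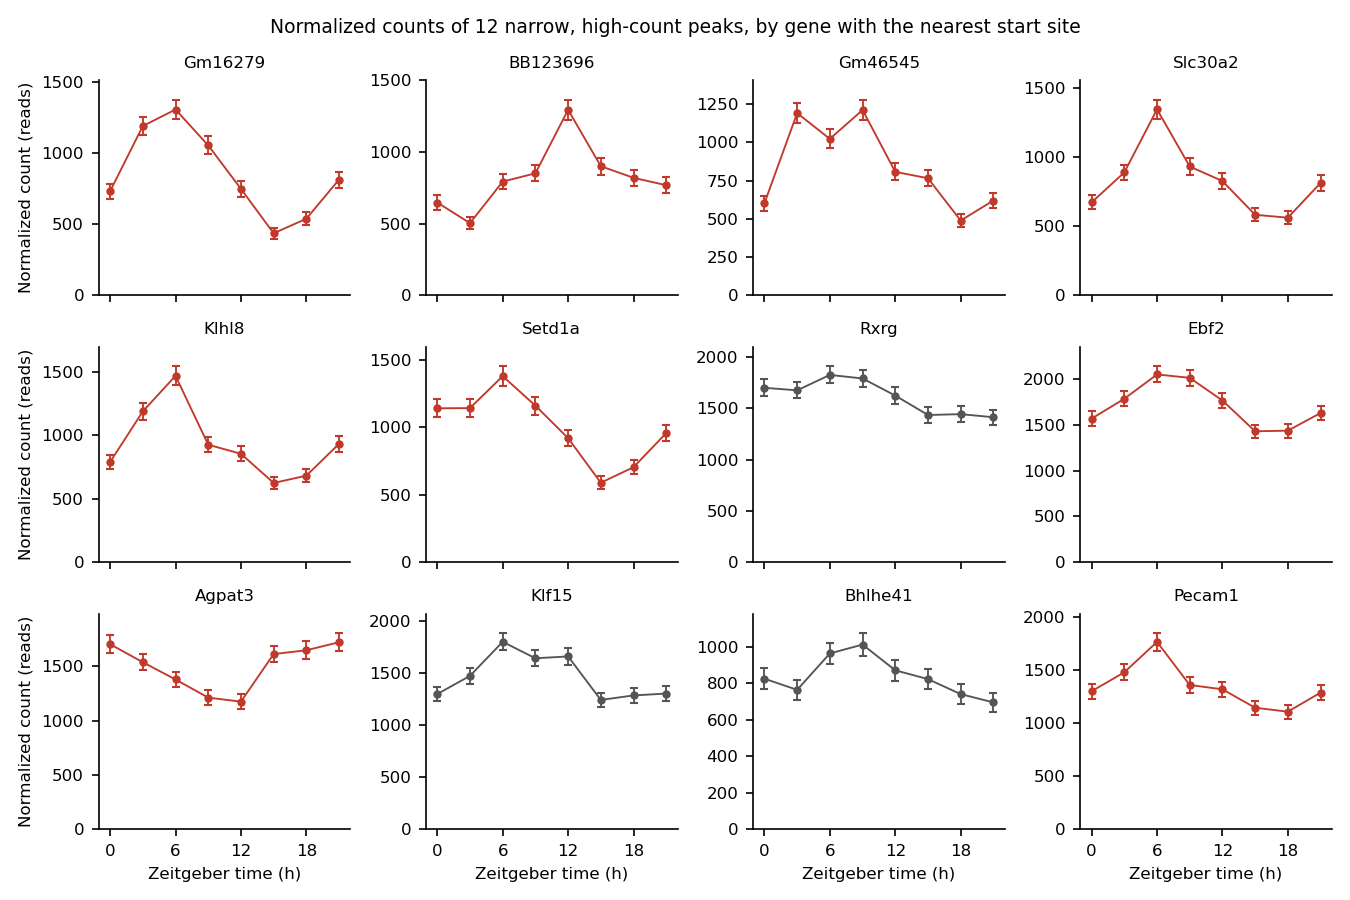
Normalized count (reads) against Zeitgeber time (h) for 12 narrow, high-count peaks, labelled by the gene with the nearest start site, with 1 library per point and error bars of 95% for counting error alone. Red lines oscillated in JTK-cycle and grey ones did not. Most panels are highest at ZT6 or ZT9, BB123696 at ZT12 and Agpat3 at ZT21.

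Of the 22 peaks at the smallest P value, the Slc30a2 peak had the largest ratio, followed by peaks near Glrx3 (chr7:137696514-137697531; ratio 2.26), A930005H10Rik (chr3:115858545-115859959; 2.03) and Cgnl1 (chr9:71829847-71830800; 1.91). The normalized counts of the Glrx3 peak, 259449 bases from the start site of this glutaredoxin gene, were 796, 951, 1186 and 1146 from ZT0 to ZT9 and 811, 676, 524 and 621 from ZT12 to ZT21. Those of the Cgnl1 peak, near a gene for a protein of cell junctions, were 647, 967, 1095 and 988 from ZT0 to ZT9 and 919.8, 606, 572 and 704 from ZT12 to ZT21. Both were high at ZT6 and ZT9 and lowest at ZT18, with a LAG of 7.5 h. In the A930005H10Rik peak the counts were 867, 605, 872 and 956 from ZT0 to ZT9 and 1232, 1027, 925 and 693 from ZT12 to ZT21, with a LAG of 13.5 h, so that the dark-phase onset was the highest and ZT3 the lowest.

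Late LAGs were found in 21 peaks, of which those with the largest ratios were BB123696 and A930005H10Rik, followed by peaks in introns of Akap13 (ratio 1.80), which encodes an anchoring protein of protein kinase A, Rusc2 (1.70) and Thoc5 (1.70), a subunit of an mRNA export complex. The last 3 were chosen after their values were seen, and the Rusc2 call was lost without ZT0, ZT3, ZT6, ZT12 or ZT21 (adjusted P = 0.161) and with a period of 24 h alone (adjusted P = 0.113). In the Thoc5 peak (chr11:4905288-4906787), the normalized counts were 858, 909, 1026 and 1269 from ZT0 to ZT9 and 1462, 1384, 1255 and 1019 from ZT12 to ZT21. They rose step by step from ZT0 to ZT12 and then fell, and the adjusted P was 0.000744.

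At the other end, the smallest ratio of highest to lowest normalized count was 1.07, in an intron of Upp2 (chr2:58596495-58597454), with counts from 847 at ZT18 to 903 at ZT12. Over the 1613 peaks the quartiles of the ratio were 1.27, 1.39 and 1.53, and 51 peaks had a ratio above 2. The 95% Wilson interval of the ZT12 count in Upp2, 846 to 965 normalized reads, holds the values of all its other libraries, but the peak was chosen for its small ratio. Such intervals cover counting error only.

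Genes of lipid metabolism, brown adipocyte identity and the clock were looked up in 12 lists of 133 genes. Of the 819 peaks assigned to these genes, 15 at 13 genes were narrow with a high count (1.83%, compared with 2.44% of all peaks), while 245 were wider peaks of the same count minimum. JTK-cycle called 4 of the 15 (background of 11.6% of all peaks) and the edgeR cosine 8 (background of 13.4%), and of all 819 peaks of these genes JTK-cycle called 164. From 15 peaks chosen with these values known, nothing is read from the counts. The lists of fatty acid uptake and binding, fatty acid oxidation and secreted factors had 0 such peaks among 104, 54 and 52, and so did the skeletal muscle (6 peaks) and macrophage (2 peaks) markers.

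Among the nuclear receptors and adipogenic factors, 3 of 93 peaks were narrow with a high count. The start site of Rxrg, which encodes a partner of PPARγ in its DNA-binding dimer, lay 15 bases from the centre of such a peak (chr1:167617633-167618927), in its UTR. Its normalized counts were 1699, 1674, 1824 and 1789.6 from ZT0 to ZT9 and 1623, 1434, 1442 and 1412 from ZT12 to ZT21. The values from ZT0 to ZT12 lay above those from ZT15 to ZT21 without overlap, but the order gave an adjusted P of 0.212 in JTK-cycle, compared with an edgeR cosine adjusted P of 0.0370. The other 2 peaks were 11740 bases upstream and 29903 bases downstream of the start site of Klf15, a Krüppel-like factor with a role in adipocyte differentiation. In the upstream peak (chr6:90450154-90451519) the counts were 1298, 1472, 1799 and 1641 from ZT0 to ZT9 and 1659, 1241, 1284 and 1302 from ZT12 to ZT21, and in the downstream one (chr6:90491815-90493144) they ranged from 785 at ZT18 to 1284 at ZT6. Both were highest at ZT6, neither oscillated in JTK-cycle (adjusted P = 0.0826 for each), and the edgeR cosine called both (adjusted P = 0.0178 and 0.0160). Without ZT12 JTK-cycle called both (adjusted P = 0.0417), and it called the downstream one also without ZT3 or ZT9 (adjusted P = 0.0417) and with DESeq2 size factors (adjusted P = 0.0260).

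Of the thermogenic and brown fate genes, only Ebf2, a transcription factor that marks brown preadipocytes, had narrow, high-count peaks, 2 of the 116 peaks of this list. The farther one, 44809 bases upstream of its start site (chr14:67187751-67189215), had normalized counts of 1569.7, 1787, 2053 and 2015 from ZT0 to ZT9 and 1768, 1431, 1438 and 1631 from ZT12 to ZT21. It oscillated with the highest values at ZT6 and ZT9 (LAG 7.5 h, adjusted P = 0.00595) and kept its call under all 13 other settings. The nearer one, 20880 bases upstream (chr14:67211689-67213135), ranged from 1174 at ZT0 to 1547 at ZT12 with an adjusted P of 0.915. Whether these 2 differ was not tested.

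Lipid genes had 4 narrow, high-count peaks. The Agpat3 peak (chr10:78359694-78361053), 8673 bases upstream of this acyltransferase of phospholipid and triglyceride synthesis, had 1705, 1539, 1379.7 and 1213 from ZT0 to ZT9 and 1175, 1614, 1649 and 1723 from ZT12 to ZT21. Its course ran against that of most oscillating peaks, with the lowest value at ZT12 and the highest at ZT21 (LAG 22.5 h, adjusted P = 0.0260). The call held under the other 4 normalizations and was lost without ZT0, ZT6, ZT18 or ZT21 (adjusted P = 0.161). Gpat3, the acyltransferase of the first step of that pathway, had an intronic peak of 806 (ZT21) to 1057 (ZT9) normalized reads. The peak near Plin2, a coat protein of lipid droplets, ranged from 879 (ZT15) to 1195 (ZT12), and the peak near Elovl5, a fatty acid elongase, from 662 (ZT3) to 1198 (ZT12). None of these 3 oscillated, with adjusted P values of 0.0826, 0.467 and 1. The Gpat3 peak was called under 6 of the 13 other settings, including without ZT0, ZT3 or ZT18 (adjusted P = 0.0417), and the Plin2 peak without ZT12 (adjusted P = 0.00595).

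Clock genes had 5 narrow, high-count peaks among 117. The one in an intron of Hlf (chr11:90340346-90341738), a D-box activator, had 1083, 1103, 1456 and 1339 from ZT0 to ZT9 and 1280.1, 1009, 935 and 1102 from ZT12 to ZT21. It was highest at ZT6 and lowest at ZT18 (LAG 7.5 h, adjusted P = 0.00595), and the call was lost with library totals alone, with cyclic loess and without ZT0, ZT15 or ZT18 (adjusted P = 0.161). The peak near Bhlhe41, a repressor of the CLOCK complex, ranged from 695 (ZT21) to 1013 (ZT9), with a JTK-cycle adjusted P of 0.0826 and an edgeR cosine adjusted P of 0.0461. JTK-cycle called it under 6 of the 13 other settings, including without ZT0, ZT3 or ZT15 (adjusted P = 0.0417). The peaks near Nfil3, a D-box repressor (941 at ZT3 to 1627 at ZT12), in Cry2, a repressor of the clock (718 at ZT15 to 1034 at ZT3), and in Rora, a nuclear receptor of the clock (735 at ZT15 to 949 at ZT0), were not called by either method.

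The Pecam1 peak (chr11:106674448-106675745), in an intron of this endothelial adhesion gene, had 1299.7, 1479, 1765 and 1359 from ZT0 to ZT9 and 1318, 1144, 1107 and 1287 from ZT12 to ZT21. It was highest at ZT6 and lowest at ZT18 (LAG 6 h, adjusted P = 0.00595), and the call held under all 13 other settings.

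The peaks with a perfect DR1 element took no common course. The 1700026J12Rik peak rose from 819.7 at ZT3 to 1081 at ZT15 (LAG 15 h, adjusted P = 0.00595), and the Rnf7 peak was highest at ZT3 (1179) and lowest at ZT15 (925; LAG 3 h, adjusted P = 0.0260). The Mrap peak ranged from 844 at ZT0 to 1155 at ZT3, and the Srp54a and H2-Ke6 peaks had ratios of 1.19 and 1.17, each with an adjusted P of 1. In the Srp54a peak 48.5% of the pieces occurred more than once in the genome. These 5 peaks were chosen by sequence alone, after the counts were known.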

How the data were processed

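PPARγ ChIP-sequencing of pooled iBAT was analysed in 8 libraries, 1 per time point, and groups were taken from the sample titles. The authors mapped the reads to mm10 with BWA-MEM 0.7.17, called peaks with MACS2 2.1.2, retained those that passed 0.05 (false discovery rate) in 6 or more libraries and deposited raw read counts per peak from HTSeq-count 1.99.2. How duplicate reads were handled is not given in the sources used here. All 8 columns were used.

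Normalization factors (TMM), the quasi-likelihood test of a 24-h cosine and Benjamini-Hochberg adjustment over all peaks were calculated with edgeR 4.0.16 in R 4.3.3. JTK-cycle was written anew in Python 3.11.15 with the exact null distribution, Bonferroni over 15 combinations and an adjusted P threshold of 0.05. For a period of 24 h alone, the adjustment was over the fewer combinations of that period. Departures from the wave stand in for replicate spread, so P values do not cover the spread between mice. Both tests were run on all 66066 peaks. In simulated data JTK-cycle called 28 of 100 peaks with a wave of 0.2 of the mean, and the cosine 64. At 0.5 of the mean they called 88 and 100 of 100, and of 4800 peaks without a wave 1.75% and 0.167%. Weak waves can thus be missed. The simulated noise was independent between peaks, so a shift shared by many peaks of a library was not covered. Peak positions, DR1 elements (at most 2 mismatches) and start sites (45766 curated transcripts, within 1000 bases of the centre) were read from RefSeq GRCm38.p6, and repeats from 31-base pieces counted over the primary assembly. Wilson intervals at 95% cover counting error only.

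The peaks named are the 6 densest, the 6 oscillating ones with the largest ratio, those at listed genes, those next to a limit and 4 at the smallest P value, with others said to be chosen after their values were seen. The set of peaks and the gene lists were chosen with earlier results of these data known. Alternatives were other normalizations (with limma 3.58.1 and DESeq2 1.42.0), each library left out, stricter limits and thresholds, and DESeq2's likelihood ratio test. Some of these peaks are not reported here.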

Additional observations from a re-analysis of the deposited data

How the results depend on the processing

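No paired analysis was possible because each time point has 1 library. The number of oscillating peaks stayed within 1.5 times of 257 under the other normalizations, with a period of 24 h only and with each library left out. It was 221 to 261 (13.7% to 16.2%) under the other normalizations, where 11.0% to 12.3% of all peaks oscillated. A period of 24 h only gave 319, where P is adjusted for fewer combinations. Leaving out a library gave 213 (without ZT6) to 358 (without ZT3), and fewer P values are then possible. A threshold of 0.01 gave 109, with 22 at 0.000744 and 87 at 0.00595, levels that 508 and 2571 of all 66066 peaks had. Of 233 peaks of at most 1000 bases 31 oscillated, and of 70 with a mean of at least 1600 reads 16, at a background of 11.6% of all peaks. The cosine called 359 peaks, 234 with cyclic loess, 92 at a threshold of 0.01, 46 in peaks of at most 1000 bases, 33 in peaks of at least 1600 reads and 107 (without ZT18) to 463 (without ZT3) with a library left out, including 147 without ZT15, 165 without ZT6, 232 without ZT9 and 237 without ZT12. DESeq2's likelihood ratio test called 419. In the main setting the cosine called 13.4% of all peaks. Shares of all peaks are not given here for the other cosine settings or with a library left out. Changes in these counts are therefore not read as particular to these peaks. Stricter limits left 233 peaks of at most 1000 bases and 70 of at least 1600 reads, and leaving out a library gave 1552 to 1669 peaks. A DR1 element was in 169 peaks, in 29 with at most 1 mismatch, in 92 within 150 central bases and in 418 over the whole peak. Within 250 bases of a start site were 198 peaks in place of 314. The share of oscillating peaks with a LAG from 3 to 9 h was 84.8%, 66.7% with library totals, 68.3% with cyclic loess and 72.1% to 83.5% with a library left out. Without the peaks of more than 50% repeated pieces, 257 and 355 peaks were called by JTK-cycle and the cosine, an alternative chosen after seeing the data, as were those on the number of peaks with a library left out and on the LAG. For 23 oscillating peaks examined singly, 243 of 299 calls under other settings were kept. The cause of the changes was not tested. Counting intervals do not cover the spread between mice or libraries, which limits the tests here.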

Other observations

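The X chromosome, which male cells carry in 1 copy, had 1751 PPARγ peaks, of which 4 were narrow with a high count (0.228%). On the 19 autosomes the share ranged from 1.90% (chromosome 18) to 3.30% (chromosome 15). Wider peaks of the same count minimum made up 4.17% of the peaks on X. The median of the mean raw count per peak was 129.8 reads on X and 207 to 266 reads on the autosomes. The limit of 800 reads is the same for all chromosomes, and the part of the copy number in this difference was not tested.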
